A study of Rattus norvegicus with 64 samples.

Results

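The genes described here are 5 of the 17260 genes in the count files: Slc12a2 and Slc12a5, which encode the chloride cotransporters NKCC1 and KCC2, and Glra2, Glra3, and Glrb, which encode the α2, α3, and β subunits of the glycine receptor. The rule that picks them uses gene names and no measured value. Total RNA depleted of ribosomal RNA was sequenced from the entorhinal cortex of Long Evans rats in 64 samples. Tissue came from the medial (MEC) or lateral (LEC) entorhinal cortex, was dissected under a microscope as layer II (LII) or the deeper layers III–VI (LDeep), and was taken at postnatal day (P) 2, 9, 23, or 45. Each layer of each region had 5 samples of P2, 4 of P9, 3 of P23, and 4 of P45. The labels name no strain difference, treatment, or transgene. They do not state that samples with the same replicate number came from the same rat, nor that different numbers were different rats, so p-values measure the spread between these samples.

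NKCC1 brings chloride into a cell and KCC2, a protein of neurons, exports it. In the immature cortex neurons hold much chloride, so that opening a GABA-A or glycine receptor can depolarize them, and as KCC2 increases chloride falls and the same receptors come to inhibit. Glycine receptors are chloride channels made of α and β subunits. The α2 subunit is the main one of the embryonic brain, α3 is an adult subunit of restricted distribution, and β binds gephyrin, the scaffold that holds the receptor at the synapse.

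In the rat genome build Rn6 of the count files, Slc12a2 lies on chromosome 18 at 52917124–52985261 (plus strand, 27 annotated exons) and Slc12a5 on chromosome 3 at 161433303–161465078 (plus strand, 26 exons). Glra2 lies on chromosome X at 30612903–30831483 (minus strand, 9 exons), Glra3 on chromosome 16 at 37676959–37908221 (minus strand, 10 exons), and Glrb on chromosome 2 at 179771149–179841130 (minus strand, 9 exons). Counts cover their annotated exons, and no exon of another gene overlapped them on either strand.

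The stretches of 250 bases before the transcription starts of Slc12a5 and Glra2 are shown because these members had the largest changes with age, in opposite directions. They come from RefSeq on build GRCr8, in which Glra2 lies on the other strand than in Rn6. Capitals mark the GC box GGGCGG or its reverse complement CCGCCC.
Slc12a5 (chr3:174115583-174115832, plus strand): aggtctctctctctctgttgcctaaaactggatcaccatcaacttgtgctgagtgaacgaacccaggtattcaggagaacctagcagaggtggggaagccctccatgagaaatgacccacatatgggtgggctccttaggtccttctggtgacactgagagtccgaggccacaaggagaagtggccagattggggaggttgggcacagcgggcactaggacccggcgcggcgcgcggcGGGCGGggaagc
Glra2 (chrX:32651937-32652186, plus strand): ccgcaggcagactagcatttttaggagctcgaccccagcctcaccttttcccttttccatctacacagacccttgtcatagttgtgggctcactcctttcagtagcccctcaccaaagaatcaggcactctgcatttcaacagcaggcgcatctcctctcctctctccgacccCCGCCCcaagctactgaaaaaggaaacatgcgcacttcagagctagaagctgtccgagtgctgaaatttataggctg
Each of these stretches held 1 GC box, a motif found on either strand in 30.5% of 33469 promoters of the same length. GC content was 59.2% for Slc12a5 and 52.4% for Glra2, against a median of 51.2% over all promoters. The promoters held 11 and 7 CpG dinucleotides, where the median promoter held 5. The promoter of Slc12a2 stood apart in base composition, with a GC content of 83.2% and 48 CpG, more CpG than in 99.8% of promoters. These matches describe the sequence and were not tested against expression.

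The read pairs assigned to genes numbered from 3894334 to 11439143 in a sample (median 7569157.5). After scaling to library size, as CPM, 1 count stood for 0.0874 to 0.257 CPM. Members were counted with different precision. Slc12a5 had 816 to 8383 counts per sample, Glrb 309 to 2301, Slc12a2 307 to 1486, and Glra2 21 to 1115, whereas Glra3 had 2 to 69 with a median of 16. The summed level of the 6 deep layer markers was 160.5 to 519.3 CPM in LII samples and 534.4 to 1836 CPM in LDeep samples, without overlap. This separates the layer labels, but a low sum alone does not show what tissue an LII sample held. The 9 neuron markers summed to 4567 to 7127 CPM in every sample, but 1 sample had an unusual mix of them. In MEC LII P2 replicate 1 Slc17a7, the vesicular glutamate transporter of cortical excitatory neurons, had 6 counts (0.600 CPM), against at least 237.0 CPM in every other sample. In this sample Gad1, Gad2, and Slc32a1, genes of inhibitory neurons, were at 675.7, 382.1, and 233.4 CPM, the highest of the series. The marker of the excitatory neurons of cortex was thus near 0 in a sample labelled as MEC. Meningeal fibroblast markers marked most LII samples, with 7 of 8 higher in LII in either region. By these markers, 3 MEC samples of P2 stood apart, the sample with little Slc17a7 among them. The MEC LII P2 replicates 1 and 3 had 22.2 and 38.7 CPM, against 200.02 to 1193 CPM in the other 30 LII samples, and the MEC LDeep P2 replicate 1 had 747.4 CPM, against 23.5 to 287.0 CPM in the other LDeep samples. In MEC LII P2 replicate 1 the markers of choroid plexus and ependyma also summed to 163.8 CPM, where no other sample exceeded 51.0 CPM. In MEC LII P2 replicate 3, Slc32a1 was at 116.6 CPM, against at most 78.3 CPM in the 61 samples not set apart. All 3 stayed in the tests, and results that rest on them are given with and without them.

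Expression is given as log2 CPM, and LFC is the log2 fold change of older (P23/P45) over younger (P2/P9) samples, of LII over LDeep, or of MEC over LEC, with its standard error (SE). A gene with a Benjamini-Hochberg adjusted p below 0.05 in the quasi-likelihood test of edgeR was called differentially expressed. For ages, the 4 samples of an age and replicate number were first summed, which gave 16 sums and 13092 tested genes. All other contrasts used the 64 samples and 12521 genes. Where a call is given without a replicate, the samples of that age and number were left out of all 4 tissues. In bulk tissue, fewer cells of a type and less RNA per cell cannot be told apart.

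With age, Slc12a5, Glrb, and Slc12a2 rose and Glra2 fell, whereas Glra3 was not called. Glra2 had the largest LFC of the 5, at -1.81 (SE 0.12, adjusted p 4.06e-10), a 3.50-fold decrease. Slc12a5 rose 2.21-fold (LFC 1.15, SE 0.10, adjusted p 1.36e-08), Glrb rose 1.73-fold (LFC 0.79, SE 0.05, adjusted p 1.78e-10), and Slc12a2 rose 1.32-fold (LFC 0.40, SE 0.05, adjusted p 2.69e-06). For Glra3 the LFC was 0.14 (SE 0.21, 95% interval -0.30 to 0.58, adjusted p 0.55). Change with age was common in this tissue, since 38.3% of the tested genes were called higher and 39.0% lower at the older ages, 77.3% in all, so 3 genes up and 1 down among 5 is close to that background. Markers of glia moved with age as well. Of 10 oligodendrocyte lineage markers 6 were called higher and 1 lower, and of 7 astrocyte markers 6 were higher and 1 lower. Neuron markers moved apart, with 6 of 9 called higher and 3 lower without the 3 samples set apart. The sum of the neuron markers overlapped between ages (4923 to 7127 CPM in the younger and 4567 to 6684 CPM in the older samples). The part of glial and neuron markers in the changes of the 5 genes was not tested.

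**Figure D1:**
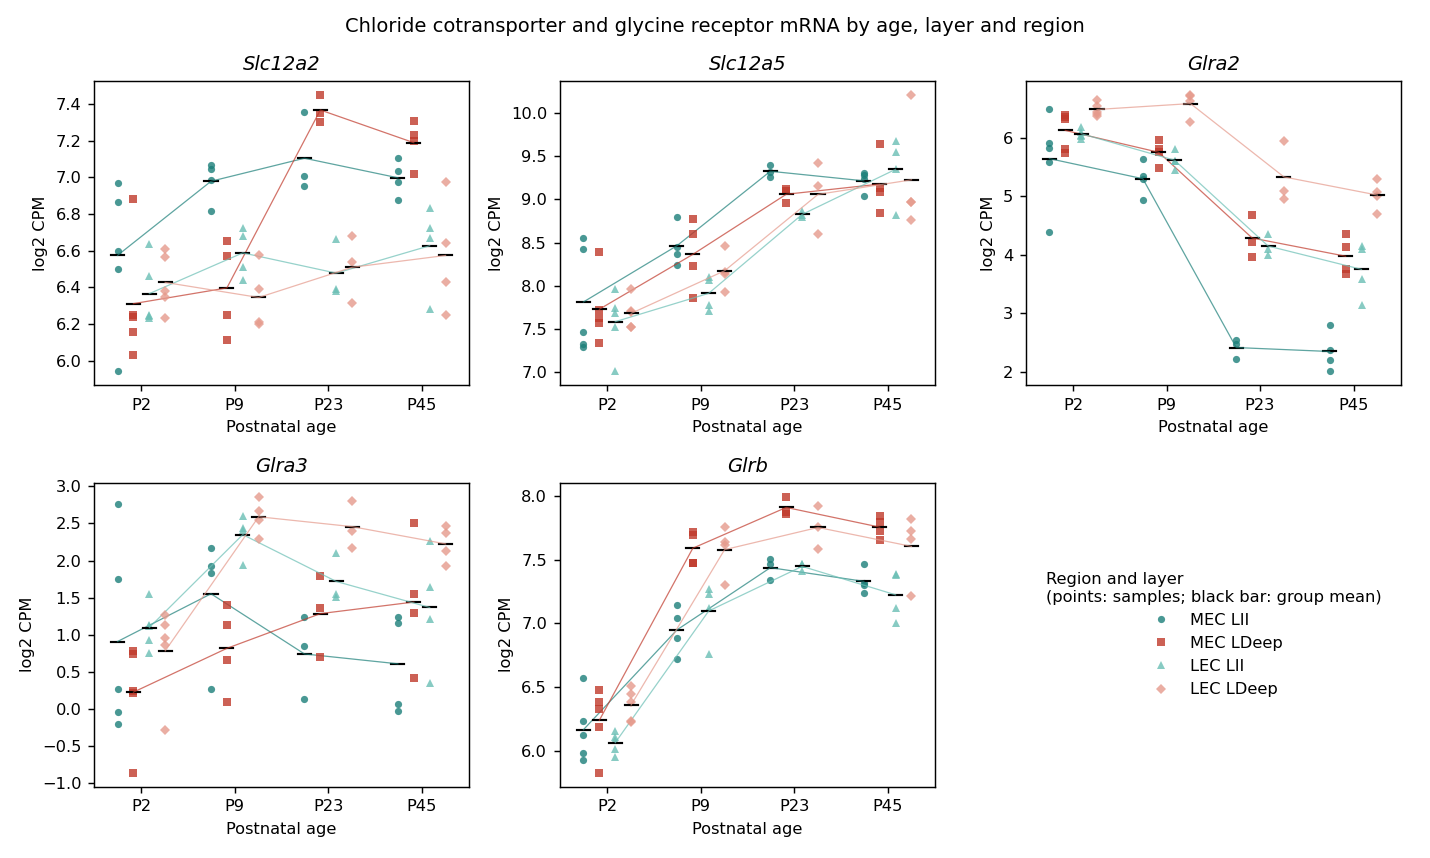
Expression of the 5 genes (y axis, log2 CPM) in all 64 samples by postnatal age (x axis), with 1 point per sample, colour and shape for region and layer, and a black bar for each group mean. Glra2 in MEC LII dropped to group means of 2.41 at P23 and 2.34 at P45, below every other group, whereas at P23 the Slc12a2 samples of MEC (6.95 to 7.45) lay above those of LEC (6.31 to 6.68).

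Slc12a5 rose in 2 steps and in all 4 tissues. Over all tissues the lowest, median, and highest sample had 7.01, 7.65, and 8.56 log2 CPM at P2 and 7.71, 8.19, and 8.80 at P9. At P23 these values were 8.60, 9.11, and 9.43, and at P45 they were 8.76, 9.19, and 10.21. No sample of P2 reached the lowest sample of P23 or P45, while the ranges of P2 and P9 overlapped. The step from P2 to P9 was an LFC of 0.47 (SE 0.13, adjusted p 0.0055) and that from P9 to P23 one of 0.83 (SE 0.15, adjusted p 0.00014). From P23 to P45 the LFC was 0.15 (95% interval -0.16 to 0.46, adjusted p 0.90). Background shares of called genes for these steps were 54.0%, 55.8%, and 0.458%.

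Across tissues, the LFC of Slc12a5 between older and younger samples was 1.07 (SE 0.18) in MEC LII, 1.05 (SE 0.18) in MEC LDeep, 1.34 (SE 0.18) in LEC LII, and 1.29 (SE 0.18) in LEC LDeep, each called, where the background was 66.5%, 66.2%, 62.7%, and 64.5% of genes. The adjusted p was 1.10e-06 in MEC LDeep and smaller in the others. At P2 the MEC spread was wide. MEC LII had 8.56, 7.29, 8.42, 7.46, and 7.33 log2 CPM, where the 2 high values are the replicates 1 and 3 named before, and MEC LDeep replicate 4 had 8.39 against 7.33 to 7.72 in the others. Without the 3 samples set apart by markers the LFC in MEC LII was 1.35 (adjusted p 1.08e-09). Neither layers nor regions differed by a called amount. The LFC of LII over LDeep was 0.13 in MEC (95% interval -0.13 to 0.38) and -0.14 in LEC (-0.40 to 0.11), and that of MEC over LEC was 0.30 in LII (0.05 to 0.56, adjusted p 0.12) and 0.03 in LDeep (-0.23 to 0.28).

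Slc12a2 rose in MEC LDeep. There the P2 samples had 6.88, 6.16, 6.25, 6.24, and 6.03 log2 CPM and the P9 samples 6.25, 6.65, 6.57, and 6.11. At P23 the values were 7.45, 7.35, and 7.30 and at P45 7.02, 7.31, 7.23, and 7.20. Every older sample of MEC LDeep lay above every younger one, the nearest younger sample being replicate 1 of P2, which carried the meningeal markers. The LFC was 0.90 (SE 0.11, adjusted p 5.28e-10), a 1.87-fold rise, and 1.00 without the 3 samples set apart. In LEC LDeep, by contrast, the younger samples had 6.20 to 6.61 and the older ones 6.25 to 6.97, with an LFC of 0.17 (SE 0.11, 95% interval -0.06 to 0.39, adjusted p 0.19), and in LEC LII the LFC was 0.08 (-0.15 to 0.31, adjusted p 0.56). In MEC LII the LFC of 0.26 (SE 0.11, adjusted p 0.037) was 0.16 without the 3 samples (adjusted p 0.16), and was not called in 12 of the 16 fits that left out 1 replicate either (0.16, adjusted p 0.27, without P23 replicate 2) nor with another scaling (RLE, 0.25, adjusted p 0.051). Summed over tissues, the step from P2 to P9 was not called (LFC 0.15, adjusted p 0.08), the step from P9 to P23 was (LFC 0.35, SE 0.08, adjusted p 0.0012), and that from P23 to P45 was not (LFC -0.05, adjusted p 0.96).

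The region difference of Slc12a2 in LDeep changed between younger and older samples. MEC over LEC in LDeep had an LFC of -0.09 (SE 0.14) at P2 and 0.06 (SE 0.16) at P9, and of 0.85 (SE 0.18, adjusted p 0.0087) at P23 and 0.59 (SE 0.16, adjusted p 0.030) at P45. At these 4 ages 0.327%, 1.88%, 0.711%, and 1.69% of all genes were called. The call at P23 was lost without any 1 of its replicates (0.71 without replicate 1, adjusted p 0.67), and that at P45 without replicate 1, 3, or 4 (0.54 without replicate 4, adjusted p 0.28). In all 7 pairs of the same age and replicate number at P23 and P45 the MEC sample was the higher one, and in 3 of 9 at P2 and P9. The difference between older and younger samples was itself called, at 0.74 (SE 0.16, adjusted p 0.012), as it was for 0.575% of all tested genes, but not without P2 replicate 5, P9 replicate 1, or P23 replicate 1 or 2 (0.66 without P23 replicate 1, adjusted p 0.17). With ages weighted equally, Slc12a2 was higher in MEC in LDeep (LFC 0.35, SE 0.08, adjusted p 0.0023) and in LII (LFC 0.40, SE 0.08, adjusted p 0.00021). Background shares were 5.78% of genes called in LDeep (2.81% higher in MEC) and 12.6% in LII (8.38% higher in MEC). For LII, 15 of 16 pairs had the higher value in MEC, and the change of this difference with age was not called (0.18, SE 0.16, adjusted p 0.74). At single ages in LII the difference was called at P23 (0.63, SE 0.18, adjusted p 0.048), a call lost in 14 of the 16 fits without 1 replicate.

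The layer difference of Slc12a2 in the MEC also changed between younger and older samples. LII was higher than LDeep at P9, with 7.04, 7.07, 6.98, and 6.82 against 6.25, 6.65, 6.57, and 6.11 log2 CPM. The groups did not overlap there and the LFC was 0.57 (SE 0.16, adjusted p 0.0081), at an age where 17.7% of all genes were called, though not without P9 replicate 1 (0.50, adjusted p 0.082) or 4 (0.53, adjusted p 0.061). At P23 and P45, where 16.5% and 14.8% of genes were called, the LFC was -0.25 (SE 0.18) and -0.19 (SE 0.16), neither called. The layer difference of older minus that of younger samples was -0.64 (SE 0.16, adjusted p 0.0080), as called for 5.26% of genes. At P2, where 9.23% of genes were called, the LFC was 0.27 (SE 0.14, adjusted p 0.22) with all samples and 0.66 (adjusted p 0.00052) without the 3 set apart, so this value rests on them. With ages weighted equally, the layer LFC in MEC was 0.10 (SE 0.08, adjusted p 0.33) with all samples, where 40.8% of genes were called. Without the 3 samples it was 0.20 (adjusted p 0.015), so this difference was called only with samples left out. In LEC no layer difference of Slc12a2 was called at any age, and the LFC with ages weighted equally was 0.05 (95% interval -0.11 to 0.21).

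Markers of oligodendrocytes rose with age in LDeep of either region. Their summed level of 10 genes was 357 to 732 CPM in the younger and 7051 to 16646 CPM in the older MEC LDeep samples, against 399 to 665 and 2785 to 7342 CPM in LEC LDeep. Of the 10 markers, 3 were called higher in MEC than in LEC in LDeep and 4 in LII (4 and 2 without the 3 samples set apart). The myelin gene Mobp was at 0 in 27 samples and Mog in 4, and the other 8 were counted in all samples. In MEC LII the older samples had 3774 to 5371 CPM and in LEC LII 1129 to 2144 CPM. The part of these markers in the results for Slc12a2 was not tested.

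**Figure D2:**
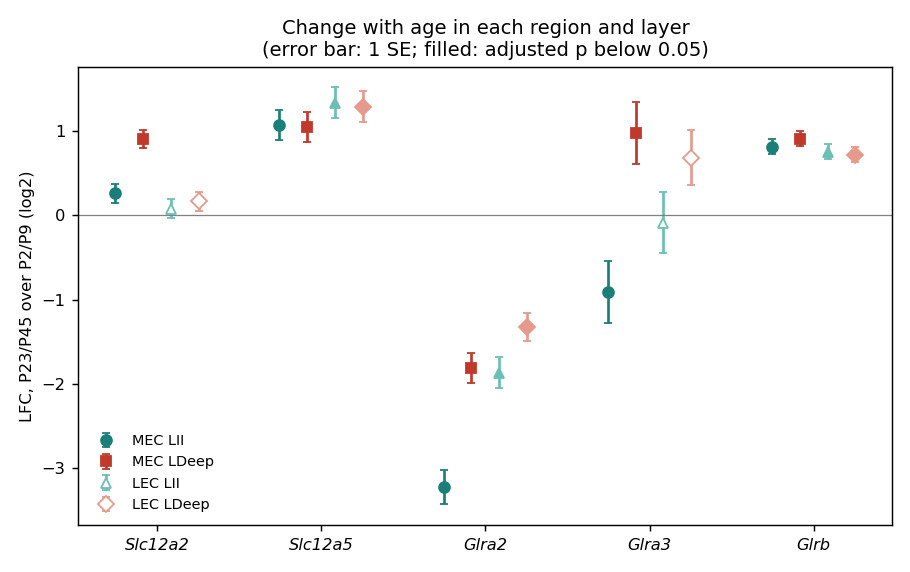
LFC of older over younger samples (y axis) for the 5 genes (x axis) in each region and layer, with 1 SE as error bar and filled symbols for an adjusted p below 0.05. Slc12a5 had LFC of 1.05 to 1.34 and Glrb of 0.72 to 0.91 in the 4 tissues, Slc12a2 reached 0.90 in MEC LDeep, and Glra2 reached -3.22 in MEC LII.

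The ratio of Slc12a5 to Slc12a2 joins the mRNA of the chloride exporter and importer and does not depend on library size. As a ratio of mRNA in bulk tissue, it measures neither protein nor transport and does not separate neurons from other cells. It was taken per kilobase (kb) of exon, since the annotated exons are 5452 and 6401 bases long. Slc12a5 exceeded Slc12a2 in every sample, from 1.52-fold to 16.2-fold. Over all tissues the lowest, median, and highest ratio was 1.52, 3.07, and 7.22 at P2, and 2.70, 3.62, and 6.01 at P9. At P23 it was 3.70, 5.63, and 8.71 and at P45 4.16, 5.90, and 16.2. Ratios of younger and older samples thus overlapped while their medians moved upwards.

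By tissue, the ratio rose in LEC LII, in LEC LDeep, and in MEC LII. In LEC LII the 9 younger samples had log2 ratios of 0.60 to 1.96 and the 7 older ones 2.22 to 3.30, without overlap, and the rise was 2.46-fold (exact permutation test over samples, two-sided, p 8.74e-05, the smallest the test can give, adjusted over 4 tissues 0.00035). For LEC LDeep the rise was 2.14-fold (exact permutation test, adjusted p 0.0010), and for MEC LII it was 1.83-fold (exact permutation test, adjusted p 0.011). The MEC LII samples of P2 spread widely, with log2 ratios of 2.85, 0.65, 2.16, 0.73, and 0.97, and the 2 high ones are those with few meningeal markers. Without the 3 samples set apart the log2 difference in MEC LII was 1.14 instead of 0.87. In MEC LDeep, where Slc12a2 rose as well, younger samples had 0.69 to 2.59 and older ones 1.89 to 2.68, and the log2 difference was 0.20 (exact permutation test, adjusted p 0.44). Whether this tissue differed from the others in the change of the ratio was not tested.

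**Figure D3:**
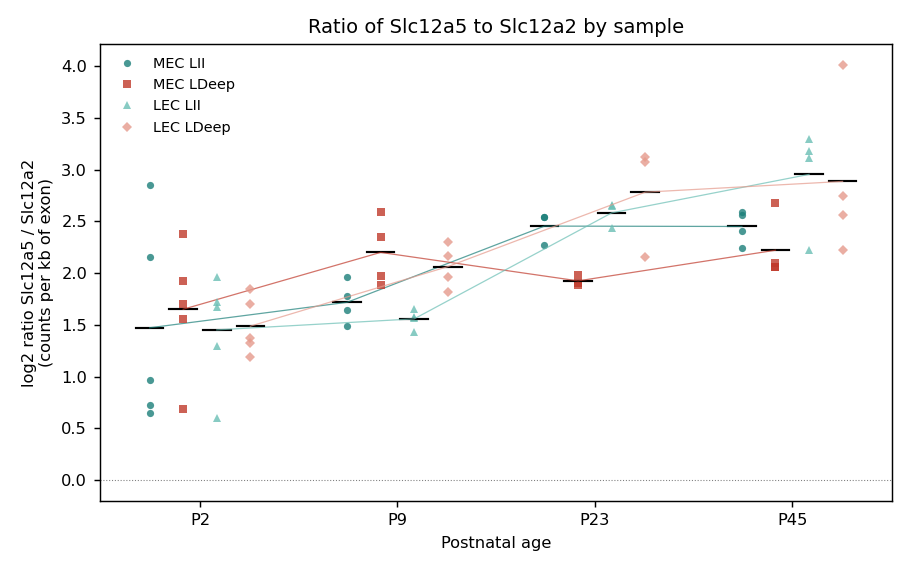
Log2 ratio of Slc12a5 to Slc12a2 per kb of exon (y axis) in each sample by postnatal age (x axis), with a black bar for the mean of each group and 0 as a dotted line. All samples lay above 0, and at P23 the 3 MEC LDeep samples (1.91, 1.98, and 1.89) lay below the samples of the other tissues.

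No step from P2 to P9 in the ratio passed the threshold in any tissue. With all samples it was 0.58 on the log2 scale in LEC LDeep (exact permutation test with 126 arrangements, adjusted p 0.095), 0.55 in MEC LDeep, 0.25 in MEC LII, and 0.11 in LEC LII. Without the 3 samples set apart it was 0.94 in MEC LII and 0.31 in MEC LDeep. Neither passed the threshold (exact permutation test, adjusted p 0.057 in MEC LII). In MEC LII the 3 remaining P2 samples (0.65, 0.73, and 0.97) lay below all 4 of P9 (1.49 to 1.96). This full separation of 3 from 4 samples has the smallest p that the test can give. The missing call in MEC LII therefore does not show that the ratio was unchanged. Between layers and regions, 4 comparisons with labels exchanged within ages gave log2 differences of 0.02 for LII over LDeep in MEC, -0.17 for the same in LEC, -0.11 for MEC over LEC in LII, and -0.31 for MEC over LEC in LDeep. Adjusted p-values of these permutation tests with 100000 resamples were 0.88, 0.57, 0.60, and 0.42. These do not show that the ratios were equal, and their signs differed between ages. In MEC the ratio was higher in LII in 0 of 4 pairs of the same number at P9 and in 3 of 3 at P23. In LDeep it was lower in MEC in all 7 older pairs but higher in 5 of 9 younger ones, and these changes with age were not tested. Without the 3 samples the layer difference in MEC was -0.21 and the region difference in LII -0.29, again not called.

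Glra2 fell in each tissue, and the fall was deepest in MEC LII. There the P2 samples had 4.39, 5.83, 6.49, 5.59, and 5.91 log2 CPM and the P9 samples 5.29, 5.35, 4.93, and 5.63. By P23 the values were 2.55, 2.47, and 2.21 and at P45 2.00, 2.20, 2.38, and 2.79. Younger and older samples did not overlap, and the LFC was -3.22 (SE 0.20, adjusted p 3.53e-20), a 9.34-fold decrease that was -3.22 also without the 3 samples set apart. Per kb of exon the level went from a median of 15.1 CPM per kb to 1.56 CPM per kb.

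In the other tissues the fall was smaller but also without overlap of younger and older samples. MEC LDeep went from 5.49 to 6.39 log2 CPM in the younger to 3.67 to 4.68 in the older samples (LFC -1.81, SE 0.18). LEC LII went from 5.44 to 6.19 to 3.15 to 4.35 (LFC -1.87, SE 0.18), and LEC LDeep from 6.26 to 6.73 to 4.70 to 5.95 (LFC -1.33, SE 0.17, adjusted p 1.06e-09). Most of the fall came between P9 and P23. The step from P2 to P9 was not called (LFC -0.21, SE 0.14, adjusted p 0.22), that from P9 to P23 was -1.56 (SE 0.17, adjusted p 1.25e-06), and that from P23 to P45 was -0.27 (SE 0.17, adjusted p 0.75).

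Glra2 was lower in LII than in LDeep and lower in MEC than in LEC. The layer LFC was -1.11 (SE 0.13, adjusted p 5.29e-10) in MEC and -0.97 (SE 0.12, adjusted p 2.36e-09) in LEC, where 40.8% and 38.6% of all genes were called, 19.9% and 21.2% lower and 21% and 17.4% higher in LII. LII was the lower sample in 15 of 16 pairs of the same age and number in MEC and in 16 of 16 in LEC. For region the LFC was -0.97 (SE 0.13, adjusted p 1.45e-07) in LII and -0.83 (SE 0.12, adjusted p 1.06e-06) in LDeep, where 4.26% and 2.97% of genes were called lower in MEC. Oligodendrocyte lineage markers were also lower in LII (7 of 10 in MEC and 6 of 10 in LEC) and astrocyte markers higher (6 of 7 in either region), and their part was not tested. The layer difference did not differ between regions by a called amount (-0.14, SE 0.17, 95% interval -0.49 to 0.21), as it did for 1.25% of genes.

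Layer and region differences of Glra2 widened with age in the MEC and in LII. In MEC the layer LFC was -0.37 at P2 and -0.45 at P9, neither called with all samples. At P2 it ranged from -0.58 to -0.16 over the alternatives and was called without MEC LII P2 replicate 3 (-0.58, adjusted p 0.046). Later it was -1.96 (SE 0.31, adjusted p 7.78e-06) at P23 and -1.68 (SE 0.27, adjusted p 1.08e-05) at P45. The difference between older and younger samples was -1.41 (SE 0.26, adjusted p 0.00021). In LII the region LFC was -0.28 at P2 and -0.30 at P9, and -1.79 (SE 0.32, adjusted p 0.00042) and -1.51 (SE 0.28, adjusted p 0.00018) at P23 and P45, with a difference of -1.36 (SE 0.26, adjusted p 0.00093). In LII 5.85%, 1.64%, 2.2%, and 4.52% of genes were called between regions at P2, P9, P23, and P45. Among all tested genes 5.26% and 2.16% had such a called difference. For LEC the change of the layer difference was -0.54 (SE 0.24, adjusted p 0.31), and for LDeep that of the region difference was -0.49 (SE 0.23, adjusted p 0.41). Such changes were called for 2.23% and 0.575% of genes. Layer differences in LEC were called at P9 (-0.98), P23 (-1.26), and P45 (-1.22), not at P2 (-0.42), and the one at P23 not without replicate 3 (-1.02, adjusted p 0.065). The background at these ages, from P2 to P45, was 12.1%, 15.5%, 11.3%, and 13.3% of genes. At single ages the region differences in LDeep were called at P9, P23, and P45 (-0.84 to -1.09), but those of P9 and P23 were lost without any 1 of the replicates of that age, and that of P45 without replicate 1 or 3.

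Ordered by mean, the 16 groups of Glra2 ran from LEC LDeep at P9 (6.58) to MEC LII at P45 (2.34). Of the 15 neighbours in this order, 12 overlapped in their ranges. The gaps lay between LEC LII at P2 and MEC LDeep at P9, between LEC LDeep at P45 (5.02) and MEC LDeep at P23 (4.28), and between LEC LII at P45 (3.75) and MEC LII at P23 (2.41).

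Glrb rose early and was higher in LDeep. Over all tissues the lowest, median, and highest sample had 5.83, 6.21, and 6.57 log2 CPM at P2 and 6.72, 7.29, and 7.76 at P9. These values were 7.34, 7.55, and 7.99 for P23 and 7.01, 7.43, and 7.84 for P45. No P2 sample overlapped a sample of a later age. The step from P2 to P9 was a 2.18-fold rise (LFC 1.12, SE 0.06, adjusted p 6.16e-09), the step to P23 one of 1.22-fold (LFC 0.29, SE 0.07, adjusted p 0.0024), and from P23 to P45 the LFC was -0.12 (SE 0.07, adjusted p 0.71). In the 4 tissues the LFC of older over younger samples ranged from 0.72 in LEC LDeep to 0.91 in MEC LDeep, each called.

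The layer LFC of Glrb was -0.40 (SE 0.06, adjusted p 6.97e-07) in MEC and -0.37 (SE 0.06, adjusted p 3.76e-06) in LEC, with LII lower in 15 of 16 pairs of the same age and number in either region. At P2 it was -0.07 (SE 0.11) in MEC and -0.30 (SE 0.11, adjusted p 0.074) in LEC. Without the 3 samples set apart it was -0.33 in MEC, not called, and -0.29 in LEC, which was called (adjusted p 0.041). At P9, where MEC LII had 7.04, 7.14, 6.89, and 6.72 and MEC LDeep 7.47, 7.69, 7.72, and 7.47 log2 CPM without overlap, it was -0.64 (SE 0.12, adjusted p 0.00023). Later calls were those of MEC at P23 (-0.47) and P45 (-0.42) and of LEC at P45 (-0.39), each lost without some single replicate, and LEC was also called at P9 (-0.48). The change of the layer difference between younger and older samples was not called in MEC (-0.09, SE 0.13) or LEC (0.04, SE 0.13). Regions did not differ by a called amount, with LFC of 0.01 (95% interval -0.11 to 0.14) in LII and 0.05 (-0.08 to 0.17) in LDeep.

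Glra3 was low and noisy. Over all tissues the lowest, median, and highest sample had -0.86, 0.83, and 2.77 log2 CPM at P2 and 0.09, 2.06, and 2.86 at P9. At P23 they were 0.14, 1.53, and 2.80 and at P45 -0.03, 1.42, and 2.50. Ranges of all ages overlapped. The step from P2 to P9 was called, at an LFC of 1.07 (SE 0.27, adjusted p 0.0036), a 2.10-fold rise, and at 1.39 without the 3 samples set apart (adjusted p 3.64e-05), whereas that from P9 to P23 was not (-0.35, SE 0.31, adjusted p 0.35). In LEC the samples of P2 and P9 did not overlap. LEC LDeep had 1.26, -0.29, 1.13, 0.96, and 0.87 at P2 and 2.67, 2.28, 2.54, and 2.86 at P9, and LEC LII went from 0.75 to 1.55 at P2 to 1.94 to 2.60 at P9.

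Glra3 was lower in MEC than in LEC in LDeep, with an LFC of -1.09 (SE 0.25, adjusted p 0.0024), a 2.14-fold difference seen in 14 of 16 pairs of the same age and number. In LII the LFC was -0.57 (SE 0.26, adjusted p 0.15), and -0.99 (adjusted p 0.0010) without the 3 samples set apart. At single ages the region difference was called in LDeep at P9 (-1.84, SE 0.48, adjusted p 0.024), though not without any 1 of the P9 replicates. Other values of Glra3 changed when the 3 samples were left out. Of these, MEC LII P2 replicates 1 and 3 had 1.75 and 2.77 log2 CPM against -0.21 to 0.27 in the remaining P2 replicates. The LFC with age in MEC LII was -0.91 (SE 0.37, adjusted p 0.026) with all samples and -0.08 (adjusted p 0.85) without the 3. Likewise the layer difference in MEC of older minus younger samples was -1.89 (SE 0.52, adjusted p 0.019) and -0.94 (adjusted p 0.25). In MEC LDeep the LFC with age was 0.97 (SE 0.37, adjusted p 0.017), and it was not called without P23 replicate 1 (0.85, adjusted p 0.061) or P45 replicate 4 (0.74, adjusted p 0.080). In LEC LDeep it was 0.68 (SE 0.33, adjusted p 0.065, and 0.017 without the 3 samples), and in LEC LII -0.09 (SE 0.36, adjusted p 0.84). Layer differences with ages weighted equally were not called in MEC (0.14, 95% interval -0.38 to 0.66) or LEC (-0.38, -0.87 to 0.11).

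**Figure D4:**
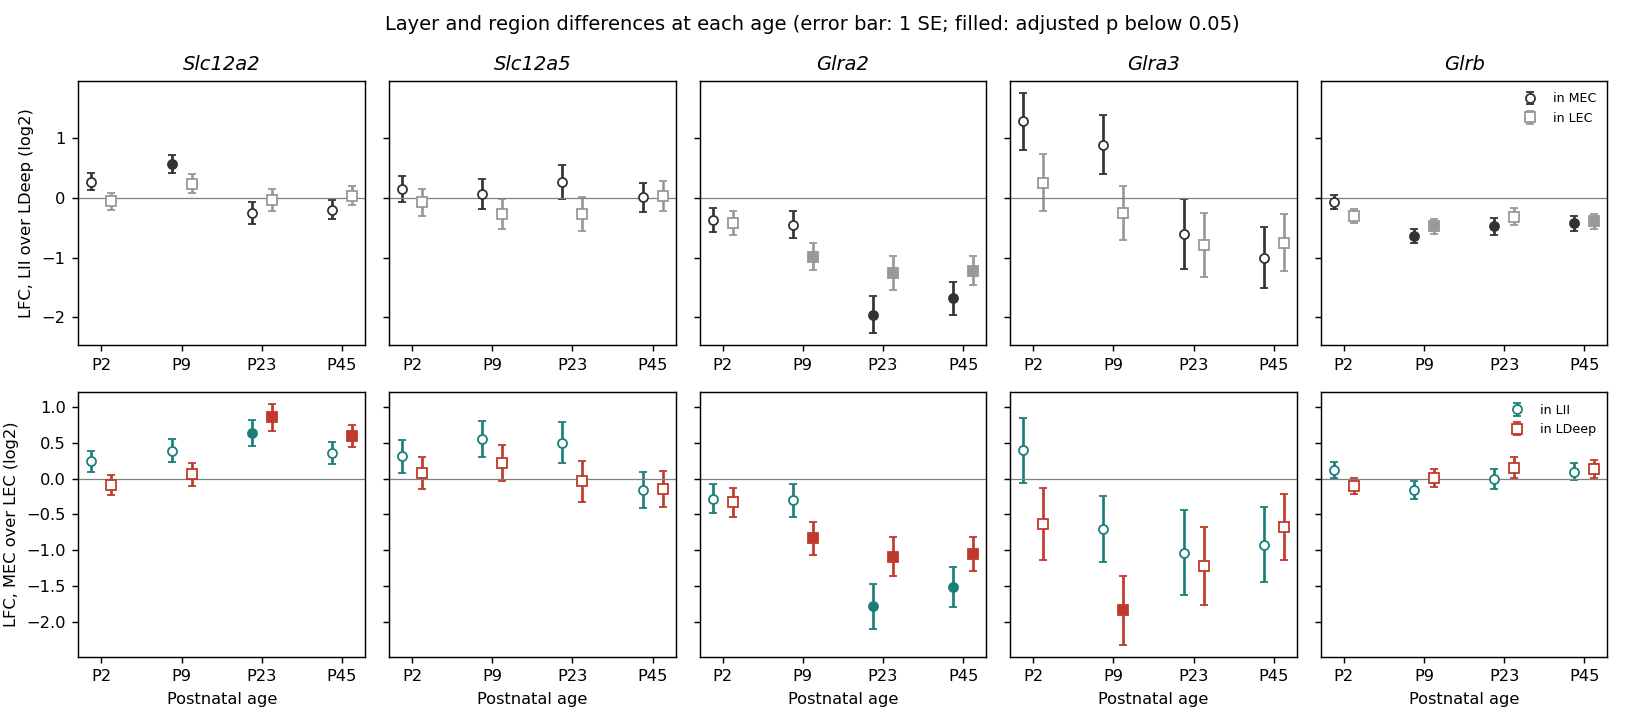
LFC of LII over LDeep (upper row, in MEC and LEC) and of MEC over LEC (lower row, in LII and LDeep) for the 5 genes (columns) at each age, with 1 SE as error bar and filled symbols for an adjusted p below 0.05. Glra2 differences were -0.28 to -0.42 at P2 and reached -1.96 between layers in MEC and -1.79 between regions in LII at P23, whereas Slc12a5 had no called difference.

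Levels of different genes were compared per kb of exon. In older MEC LII samples Glra2 (1.18 to 2.10, median 1.56 CPM per kb) and Glra3 (0.53 to 1.56, median 1.15 CPM per kb) overlapped, and in older LEC LDeep samples Glra2 had a median of 10.6 CPM per kb. Glrb, the partner of all α subunits, had group means of 44.8 to 55.1 CPM per kb at P2 and of 101 to 161 CPM per kb at P23 and P45. Slc12a5 had group means of 36.0 to 44.5 CPM per kb at P2 and 83.2 to 122 CPM per kb at the older ages. Of the other α subunits, Glra1, the main adult subunit of spinal cord and brainstem, had a median of 1 count per sample (0 to 24, with 0 in 23 samples), and Glra4 at most 5.

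Lists of related genes give the setting of the 5. Of the 8 tested members of the SLC12 family, 5 were called higher and 1 lower at the older ages, close to the background of 77.3% of all tested genes, with a median LFC of 0.39 where the median of all genes was -0.01. Besides Slc12a5 and Slc12a2 these included the potassium-chloride cotransporter Slc12a4 (KCC1, LFC 0.44, SE 0.10) and Slc12a3 (NCC, LFC 0.69, SE 0.24, at a median of 1.65 CPM), while Slc12a9 fell (LFC -0.42, SE 0.07). Slc12a7 (KCC4, LFC -0.15) and Slc12a8 (-0.26) were not called, and Slc12a1 had too few counts. In the layers, Slc12a7 and Slc12a4 were higher in LII in MEC (LFC 2.09 and 1.07) and in LEC (2.12 and 1.23), and Slc12a8 in LEC (0.63). Meningeal fibroblast markers were likewise higher in LII (median LFC 3.01 in MEC and 4.13 in LEC), as were 6 of 7 astrocyte and 4 of 4 endothelial markers in either region, and their part was not tested.

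Among 16 regulators of chloride and bicarbonate, 7 were called higher and 3 lower at the older ages (median LFC 0.13), a smaller share than the 77.3% of all tested genes. The largest rises were those of the carbonic anhydrases Car2 (LFC 2.38, SE 0.10) and Car7 (1.71, SE 0.13), the activity-regulated transcription factor Egr4 (2.31, SE 0.30), and the sodium-dependent bicarbonate transporter Slc4a10 (1.42, SE 0.04). Of the kinases that act on both cotransporters, Wnk4 (0.95, SE 0.14), Wnk1 (0.44, SE 0.10), and Stk39 (SPAK, 0.48, SE 0.10) rose, whereas Wnk3 (-0.73, SE 0.06) and Oxsr1 (OSR1, -0.65, SE 0.04) fell and Wnk2 (-0.09, SE 0.15) was not called. Of the others, Slc4a8 (0.22), Slc4a3 (0.03), Cab39 (-0.01), and the chloride channel gene Clcn2 (-0.16) were not called either. Neto2, a KCC2-binding auxiliary protein, fell (-1.54, SE 0.11), against the direction of Slc12a5. It was also lower in LII, by an LFC of -1.01 in MEC and -0.73 in LEC. Rest, a repressor of neuronal genes, had an LFC of -0.18 with age (SE 0.09, adjusted p 0.087) and was higher in LII in MEC (0.66) and LEC (0.60), as was Wnk4 (2.39 and 2.28). In the regions, 3 regulators were called in LII, each higher in MEC (Slc4a3, Cab39, and Oxsr1, LFC 0.17 to 0.22), and 1 in LDeep (Car2, 0.40). Slc4a3 was not called without the 3 samples set apart (0.17, adjusted p 0.11).

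In the list of glycine receptor, synapse, and transport genes, 8 of 18 tested genes were called higher and 6 lower at the older ages (median LFC 0.17), close to the background of 77.3%. Without the 3 samples set apart 9 were higher, since Slc6a9 was then called (LFC 0.22, adjusted p 0.021). At the synapse, gephyrin (Gphn) had an LFC of -0.05 (SE 0.04, adjusted p 0.31). Glra1 was called higher from its few counts (1.23, SE 0.50, adjusted p 0.036, and 1.93 without the 3 samples). Of the transporters, the neuronal glycine transporter Slc6a5 (GlyT2) rose from low levels (LFC 2.83, SE 0.24, at most 33.9 CPM), the amino acid exchanger Slc7a10 rose (0.59, SE 0.13), the taurine transporter Slc6a6 fell (-0.79, SE 0.08), and Slc6a9 (GlyT1, 0.19, adjusted p 0.11) and the vesicular transporter Slc32a1 (-0.14, adjusted p 0.43) were not called. The glycine cleavage genes moved apart, with Gldc (0.65, SE 0.10) and Gcsh (0.42, SE 0.08) higher and Amt (-0.63, SE 0.06) lower. The serine hydroxymethyltransferases Shmt1 (-0.91, SE 0.11) and Shmt2 (-0.44, SE 0.05), which interconvert serine and glycine, fell. Genes of taurine synthesis also moved apart, with Csad higher (1.31, SE 0.08) and Cdo1 lower (-0.47, SE 0.05). Between layers, Slc6a9 was lower in LII in MEC (-0.36) and LEC (-0.47), as Glra2 and Glrb were, and Gldc (0.61 and 0.42) and Csad (0.37 and 0.44) were higher. Between regions, the genes called besides Glra2 and Glra3 were Slc6a5, higher in MEC in LDeep (1.26, SE 0.27), and Slc32a1 in LII. The LFC of Slc32a1 rested on the samples set apart, at 0.64 (SE 0.17, adjusted p 0.00715) with them and 0.27 (SE 0.10, adjusted p 0.066) without.

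The genes whose 16 group means were most like those of each member are given as a description, with Pearson's r over the groups, which share libraries. Slc12a5 was most like Nudt18 (0.99), Map1a (0.99), and Grin2a (0.98), and Glrb most like Ccdc32 (0.99), Pitpna (0.98), and Atp6ap2 (0.98). For Glra2 these were Pcyt1b (0.98), Sh3kbp1 (0.97), and Rsph9 (0.96). Slc12a2 (Cyp2j10, 0.89; Shisa8, 0.88; Hhip, 0.87) and Glra3 (Fsd2, 0.88; Gda, 0.85; Hebp1, 0.85) had no gene as close. Among the members themselves, Slc12a5 and Glrb had an r of 0.79 and Slc12a5 and Glra2 one of -0.81.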

How the data were processed

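After trimming (Trimmomatic 0.33) and mapping to Rn6 (STAR 2.4.0), the authors counted read pairs on RefSeq exons by strand with featureCounts (Subread 1.4.6-p1), with pairs overlapping several genes counted for each. The deposited values are these counts, whole numbers without normalization, and 1 file per sample was used. Groups came from the sample labels. Here, counts were tested with edgeR 4.0.16 in R 4.3.3 (TMM, filterByExpr, quasi-likelihood F test, Benjamini-Hochberg adjustment over all tested genes, threshold 0.05), with the size of the LFC divided by the square root of F as SE and 95% intervals from the t distribution of the fit. Log2 CPM used a prior count of 2, and the ratio added 0.5 to each count. No pair of replicates held identical counts. In simulated counts with 200 genes changed 2-fold, the test of ages recovered 190 (95.0%, over 13092 genes) and that of layers in MEC 199 (99.5%, over 12521 genes). Changed genes were drawn only from those above a limit of mean count, so the share for layers does not cover Glra3. Samples were simulated as independent.

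The rule for the members uses gene names alone, but the members and lists were proposed with earlier results of these data known. Named genes were the members, the tested list genes for age, the list genes past the threshold with the largest LFC for layer and region, up to 3 per direction, and the 3 genes most like each member. Alternatives were RLE size factors, no filter, DESeq2 1.42.0, limma 3.58.1 with voom and quantile normalization, fits of 1 region or layer, a replicate block, and left-out replicates. Leaving out marked libraries, singly or all 3 together, also for the list genes, was added after seeing the data. Promoter sequences were those of RefSeq on GRCr8, and neither a whole genome nor a protein sequence was used here. Some list genes are counted but not reported here by name.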

Additional observations from a re-analysis of the deposited data

Results flagged for a closer look

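In 72 checks of groups of 4 or 5 samples, 5 samples lay apart from the rest of their group by Dixon's criterion, where chance alone marks about 1 group in 20. Slc12a2 in MEC LDeep P2 replicate 1 had 6.88 log2 CPM, against 6.03 to 6.25 in the other 4, and this is the sample with the meningeal markers. Slc12a5 in LEC LDeep P45 replicate 4 had 10.21 log2 CPM, the highest of all 64 samples, against 8.76 to 8.97. Glra3 in LEC LDeep P2 replicate 2 had -0.29 log2 CPM, against 0.87 to 1.26. The log2 ratio of Slc12a5 to Slc12a2 was 2.68 in MEC LDeep P45 replicate 4, against 2.06 to 2.09, and 2.22 in LEC LII P45 replicate 3, against 3.12 to 3.30.

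Of 25 tests of whether a difference itself differed between ages or regions, 5 were called by edgeR's quasi-likelihood test. Shares of all tested genes called in the same tests were 5.26% (layers in MEC, by age) and 2.23% (layers in LEC, by age). They were 2.16% (regions in LII, by age), 0.575% (regions in LDeep, by age), and 1.25% (layers, by region). The layer difference in MEC changed from younger to older samples by -1.41 for Glra2 (adjusted p 0.00021), -1.89 for Glra3 (adjusted p 0.019), and -0.64 for Slc12a2 (adjusted p 0.0080). The region difference changed by -1.36 for Glra2 in LII (adjusted p 0.00093) and by 0.74 for Slc12a2 in LDeep (adjusted p 0.012). The value for Glra3 was -0.94 (adjusted p 0.25) without the 3 samples set apart. That for Slc12a2 in LDeep was not called without some single replicates.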

How the results depend on the processing

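Over all alternatives, 1071 of the values that answer a comparison kept their direction and their side of the threshold, 10 lost the call and 6 gained it. No called value turned its direction, and the sign of an uncalled difference was not read as a direction. For Glra3, the layer difference in MEC of older minus younger samples lost its call with limma voom (-1.70, adjusted p 0.074), with the MEC samples alone (-1.89, adjusted p 0.11), without the 3 MEC P2 samples set apart (-0.94), and without P2 replicate 3 (-1.47), P9 replicate 1 (-1.76), or P23 replicate 2 (-1.74), within a range of -2.14 to -1.47 over all left-out replicates. Limma voom called Glra3 lower in LII in LEC (-0.79, adjusted p 0.0078). Leaving out replicates moved the region difference of Glra3 in LII between -0.78 and -0.43, which was called without MEC LII P2 replicate 3 (-0.77) and without the 3 samples (-0.99). For Slc12a2, the layer difference in MEC ranged from 0.067 to 0.18 when replicates were left out and was called without P2 replicate 1, as it was without the 3 samples (0.20), and the change of its region difference in LDeep ranged from 0.66 to 0.85, not called without P2 replicate 5, P9 replicate 1, or P23 replicate 1 or 2. The causes were not tested. Numbers of called genes stayed within 1.5 times those of the main test. Among values of single ages or tissues, 89 lost and 15 gained a call. The labels do not say that equal replicate numbers are 1 rat. Deviations of samples with the same number had a correlation over 0.1 in 55 of 96 pairs of such samples, and a sample correlated best with its own number in 54 of 96 comparisons. Between tissues, the mean correlation was 0.11 to 0.17 for the same number and -0.06 to -0.03 for other numbers of that age. A replicate block changed no call of a member (Glra2 between layers in MEC -1.12, Slc12a2 between regions in LDeep 0.35), and gave 5519 genes called between layers in MEC. Depth limits Glra3 most, with a median of 16 counts per sample and an SE of up to 0.59 for the differences at single ages.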
